A study of Homo sapiens with 3 samples.

Results

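The neuronal cytoskeleton and stathmin genes are 9 named genes: STMN1, STMN3, INA, CRMP1, TUBB3, UCHL1, MAP1B, NEFL and NEFM. They were chosen by name, with the log2 fold changes of these same libraries known, so every value of theirs given below is a description and none was tested. Of the 9 genes, 8 were among the 12040 genes of the table, and NEFM was not analysed here. The libraries came from HEK293 cells, a human line of embryonic kidney origin, in a T-REx Flp-In derivative that carries FLAG-tagged DICER1 in all groups. T-REx cells hold a tetracycline-regulated expression system, and the sources used here do not give the state of the transgene. Cells were transfected for RNA interference, and poly(A) RNA of 1 DICER1 knockdown, 1 DROSHA knockdown and 1 mock transfection was sequenced. DICER1 cuts miRNA precursors, and DROSHA acts one step before it in the nucleus. All 3 sample titles carry 2.5d, which the labels do not explain.

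The authors deposited log2 fold changes in 2 columns, called here the first and the second deposited comparison. The columns carry no name, so neither is assigned to a knockdown. In both, a level is divided by that of 1 shared denominator library, after adding 1 to each, and log2 is taken. The first minus the second fold change therefore compares the numerator libraries with each other, and the shared library cancels in it. The words rose and fell are kept for values of at least 1 in size, a 2-fold difference on this scale. With 1 library in each group there is no replicate error and no p-value, and sequencing depth is unknown. For DICER1 the authors' deposited table holds -1.32 (first) and 0.58 (second). For DROSHA the authors' deposited table holds -0.11 (first) and -1.65 (second). DICER1 thus fell in the first comparison only, and DROSHA in the second only.

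Microtubules and intermediate filaments carry the shape and the transport of axons. Stathmins bind tubulin dimers and favour microtubule disassembly, while microtubule-associated proteins such as MAP1B stabilise microtubules in growing axons. Collapsin response mediator proteins bind tubulin and act in the growth cone downstream of semaphorins. Neurofilaments are built from the NEFL, NEFM and INA proteins, among others, and fill large axons. TUBB3, class III beta-tubulin, and UCHL1, a ubiquitin C-terminal hydrolase, are abundant in neurons and serve as neuronal markers. In cells outside the nervous system many neuronal genes are held down by REST, a zinc finger repressor that recruits histone-modifying complexes.

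STMN3, INA, CRMP1, NEFL and TUBB3 were at least 1.5-fold higher in the first comparison and below 0 in the second, while STMN1, MAP1B and UCHL1 lay near 0 in both. In the second comparison INA and NEFL stayed within the range of the middle 95% of all genes. Of the 8 genes 2 rose (STMN3 and INA) and none fell in the first comparison, where 0.174% of all 12040 genes rose and 0.166% fell. At least 1.5-fold higher in that comparison were 5 of the 8, against 0.872% of all genes. In the second comparison 2 of the 8 fell (STMN3 and CRMP1) and none rose, where 0.748% of all genes fell and 0.0831% rose. At least 1.5-fold lower there were 3 of the 8 (STMN3, CRMP1 and TUBB3), against 3.85% of all genes. The comparisons share their denominator library, so their values are not independent of each other. The difference, first minus second, was at least 1 for 4 of the 8 genes (STMN3, CRMP1, INA and TUBB3) and at most -1 for none, where 1.31% and 0.349% of all genes passed. It was at least 1.5-fold in size and positive for 5 of the 8, against 6.17% of all genes. The members were picked from these values, and nothing is read from these shares.

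The median over the 8 genes was 0.65 in the first comparison, against 0.03 over all genes. It was -0.45 in the second comparison, against 0.0063 over all genes, and 1.22 in the difference, against 0.02 over all genes. Without STMN3 the median was -0.33 in the second comparison. Poly(A) RNA was taken from whole cultures, so a higher level in every cell and a larger share of cells with these transcripts cannot be told apart.

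**Figure D1:**
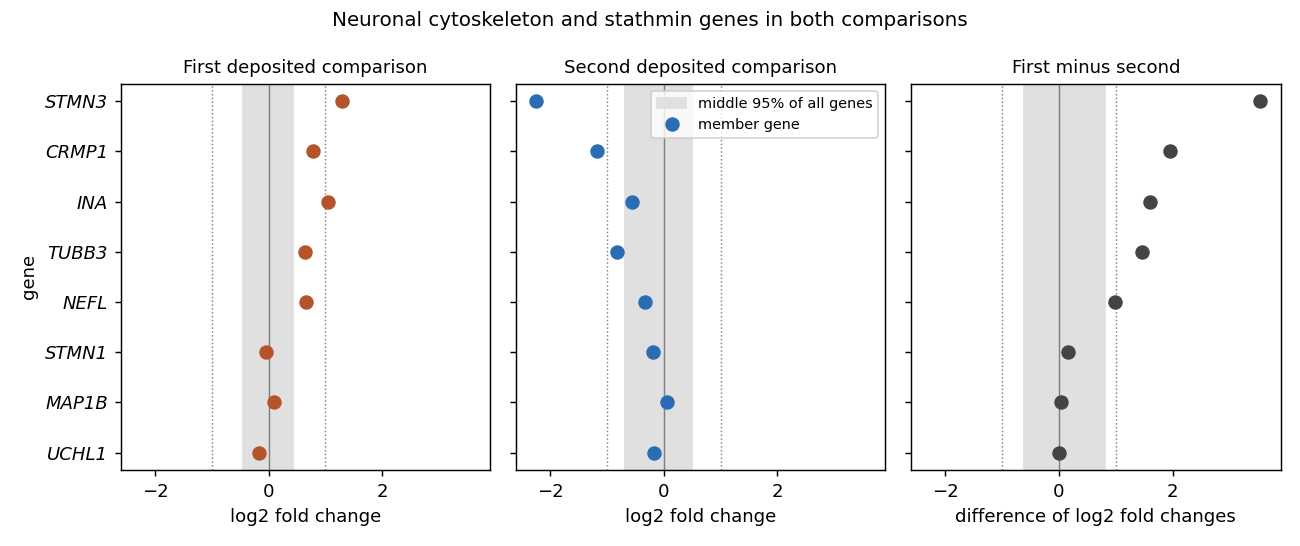
Log2 fold change of the 8 genes in the first comparison (left), in the second comparison (middle) and their difference, first minus second (right), 1 point per gene and no replicates. Shading spans the middle 95% of all 12040 genes and dotted lines mark a 2-fold difference. STMN3 lies farthest out in the second comparison (-2.24) and in the difference (3.54), and STMN1, MAP1B and UCHL1 lie within the shading in each panel.

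STMN3, a stathmin of neurons, had the largest values of the group. It had 1.30 in the first comparison of the authors' deposited table and -2.24 in the second, or 2.46-fold higher and 4.72-fold lower than the shared library after 1 was added to each level. It ranked number 10 from the top of 12040 genes in the first comparison and number 2 from the bottom in the second. The difference for STMN3, first minus second, was 3.54, the highest of all 12040 genes. STMN1, the stathmin of dividing cells, stood at -0.04 and -0.20 in the authors' deposited table, with a difference of 0.15. STMN3 was thus far from 0 and STMN1 close to it in each comparison. STMN2 and STMN4 were not analysed here.

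CRMP1 had 0.79 in the first comparison of the authors' deposited table and -1.17 in the second, rank 46 from the top and rank 47 from the bottom. Its difference was 1.96. It was the outermost of 5 collapsin response mediator genes, none of which rose in either comparison, and the only one that fell, in the second. Over all genes 0.174% rose and 0.166% fell in the first comparison, and 0.0831% rose and 0.748% fell in the second. DPYSL4, another gene of this family, stood at 0.63 and -0.93 in the authors' deposited table, with a difference of 1.56. DPYSL2, the best studied of the family for axon growth, stood at 0.39 and -0.63 in the authors' deposited table, with a difference of 1.02. DPYSL5 was at 0.26 and -0.42, and DPYSL3 at 0.23 and -0.0056, in the authors' deposited table. Without CRMP1, the other 4 genes had a median of 0.33 (first comparison) and -0.53 (second). All 5 genes were above 0 in the first comparison and below 0 in the second, DPYSL3 by a margin near 0.

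TUBB3 had 0.64 in the first comparison of the authors' deposited table and -0.82 in the second, with a difference of 1.46. Its ranks were 81 from the top and 165 from the bottom. The 16 tubulin genes as a group lay near 0, with medians of -0.0072 and -0.14. Of these 16, none passed 2-fold in the first comparison, where 0.174% of all genes rose and 0.166% fell. In the second, 1 of them fell, against 0.748% of all genes, and nothing is read from these counts. The gene that fell was TUBB2B, a beta-tubulin of neuronal tissue, at 0.42 and -1.09 in the authors' deposited table. TUBB2A, its near-identical neighbour on the chromosome, stood at 0.40 and -0.28 in the authors' deposited table. Beta-tubulin genes are close copies of each other, so the authors' assignment of reads among them is uncertain. TUBB1 was the lowest tubulin of the first comparison, at -0.52 and -0.59 in the authors' deposited table. TUBD1, delta-tubulin, was the highest of the second, with -0.0087 and 0.37 in the authors' deposited table.

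The neurofilament genes INA and NEFL lay farther from 0 in the first comparison than in the second. INA, which encodes alpha-internexin, stood at 1.05 and -0.57 in the authors' deposited table, with a difference of 1.61, and ranked 19 from the top in the first comparison. NEFL, the light neurofilament subunit, stood at 0.65 and -0.33 in the authors' deposited table, rank 74 from the top, with a difference of 0.99. Of the 7 measured genes for intermediate filaments and lamins, INA alone rose (first comparison), and none fell in either comparison. Without INA and NEFL, the other 5 had medians of 0.17 (first comparison) and -0.14 (second). VIM, vimentin, was the highest of those 5 in the first comparison, at 0.48 and -0.16 in the authors' deposited table. PRPH, the peripheral neurofilament protein peripherin, was at 0.14 and -0.12, and the lamin gene LMNA at -0.0045 and -0.11, in the authors' deposited table.

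MAP1B had 0.09 in the first comparison of the authors' deposited table and 0.06 in the second, with a difference of 0.03. It belongs to a list of 34 genes for microtubule binding and severing proteins, whose medians were 0.08 in both comparisons. None of the 34 rose or fell in either comparison. CLIP1, which tracks microtubule plus ends, was the lowest of them in the first comparison and the highest in the second, at -0.70 and 0.40 in the authors' deposited table, and its difference of -1.10 was the only one at or past -1. MAP7D2 was the lowest in the second comparison, at 0.20 and -0.76 in the authors' deposited table. UCHL1 stood at -0.17 in both comparisons in the authors' deposited table, with a difference of 0.00035, the smallest of the 8 genes. Its relative UCHL3 was at 0.04 and 0.29, UCHL5 at -0.40 and -0.12, and BAP1 at 0.03 and 0.13, in the authors' deposited table. None of these 4 hydrolase genes rose or fell. As given above, few of all genes did, so nothing is read from the lack of calls in these lists.

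Further lists of cytoskeletal genes had medians smaller in size than those of the members. The 7 tubulin folding cofactors had medians of 0.19 and 0.18 in the first and second comparison, the 15 tubulin modifying enzymes 0.04 and -0.05, and the 15 kinesins of axonal transport 0.08 and 0.15. The cofactor medians lay above the upper quartiles of all genes, 0.15 and 0.17. For 22 growth cone and actin genes the medians were -0.02 and -0.03. No gene of these 4 lists rose or fell in either comparison. Of all genes, 0.174% rose and 0.166% fell in the first comparison, and 0.0831% rose and 0.748% fell in the second. Nothing is read from the lack of calls in lists of this size. KIF1A, a neuronal kinesin that carries synaptic vesicle precursors, was the lowest kinesin of the second comparison, at 0.10 and -0.69 in the authors' deposited table. MARCKSL1, an actin-binding protein, was the lowest growth cone gene of the second comparison, at -0.17 and -0.88 in the authors' deposited table. DBN1, drebrin, was the highest growth cone gene of the first, at 0.31 and -0.50 in the authors' deposited table. TTLL11, a tubulin polyglutamylase, was the highest modifying enzyme of the first, at 0.48 and -0.01 in the authors' deposited table. All these lists were written from textbook knowledge with earlier results of these data known.

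**Figure D2:**
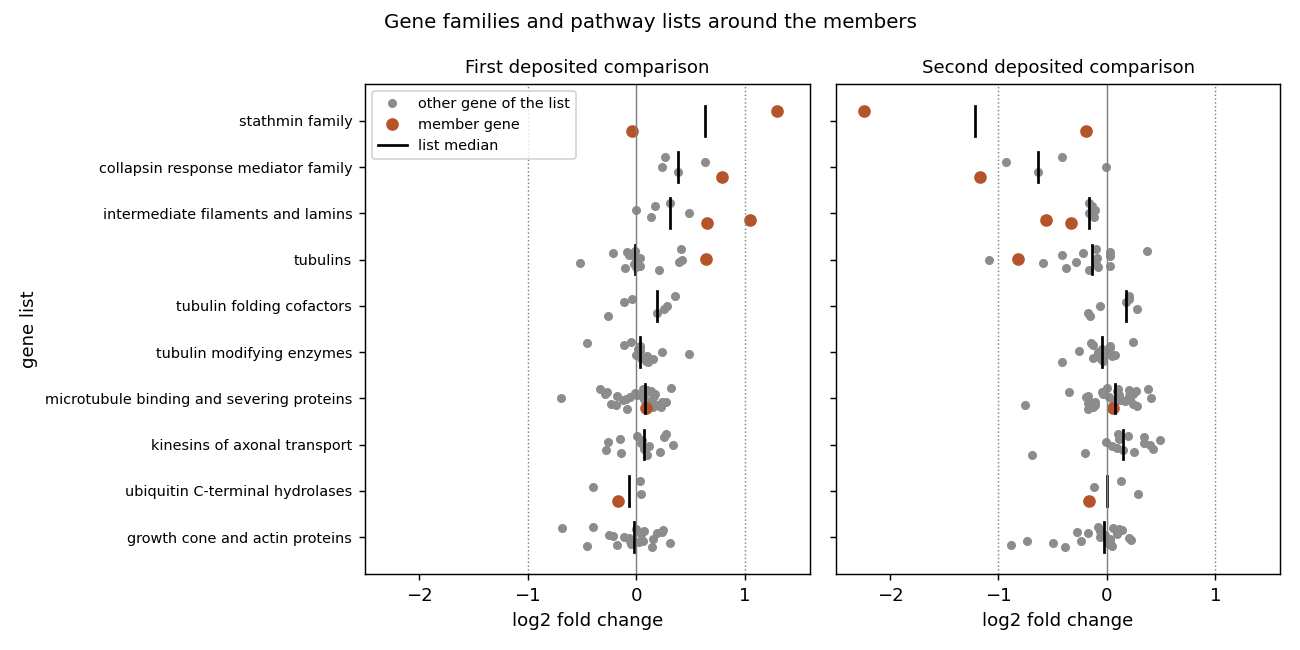
Log2 fold changes of each gene in 10 gene families and pathway lists, first comparison on the left and second on the right, with the median of each list as a black bar and dotted lines at a 2-fold difference. STMN3, CRMP1, TUBB3, INA and NEFL are the outer points to the right on the left side. The lists of cofactors, modifying enzymes, kinesins and growth cone genes stay within a 2-fold difference of 0, as do nearly all listed genes.

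Few further markers of neurons, and few of glia and kidney, were measured. Of 11 further neuronal markers, 4 were measured, with medians of 0.06 and -0.08 and none that rose or fell. Across all genes 0.174% rose and 0.166% fell in the first comparison, and 0.0831% rose and 0.748% fell in the second. Nothing is read from the lack of calls in the marker lists. ENO2, neuron-specific enolase, was at -0.06 and -0.43, and ELAVL2, a neuronal RNA-binding protein, at 0.34 and 0.01, in the authors' deposited table. NCAM1 was at 0.03 and 0.08, and MAPT at 0.10 and -0.17, in the authors' deposited table. Of 10 glial markers 3 were measured, between -0.26 and 0.24 in the first comparison and between -0.28 and 0.36 in the second. Of 12 kidney markers 2 were measured, LRP2 and WT1, and neither rose nor fell. Their part in the values of the 8 genes was not tested. REST had -0.50 in the first comparison of the authors' deposited table and 0.53 in the second, with a difference of -1.03, and its part was not tested. RCOR1, the corepressor that binds REST, stood at 0.02 and 0.05 in the authors' deposited table.

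**Figure D3:**
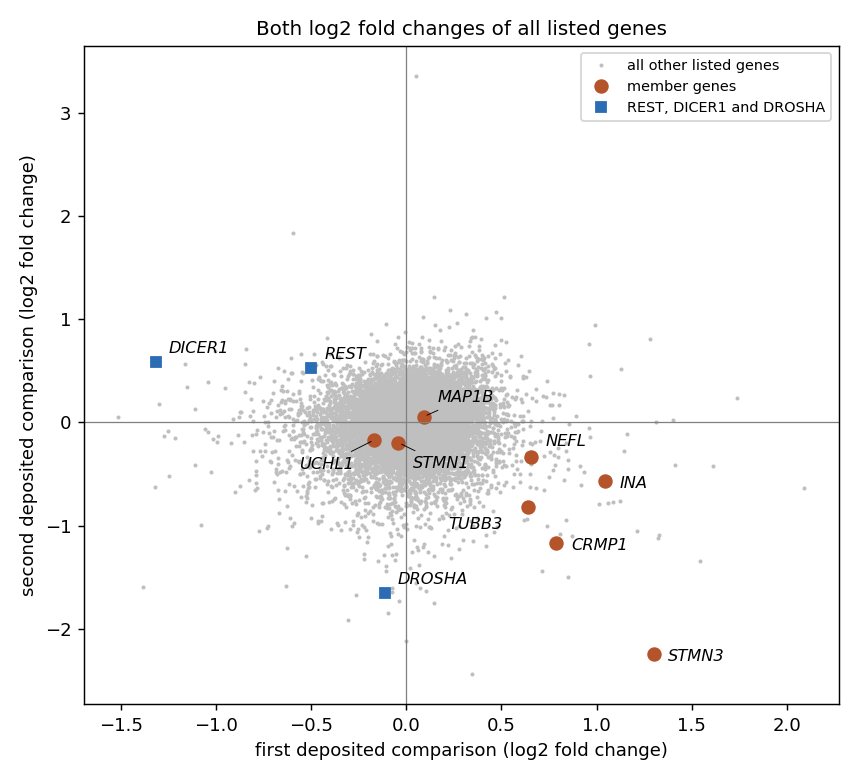
Each of the 12040 genes by its log2 fold change in the first comparison (horizontal axis) and in the second (vertical axis), with the 8 member genes as large points and REST, DICER1 and DROSHA as squares. STMN3, CRMP1, INA, TUBB3 and NEFL lie at the lower right, and REST lies at the upper left. Both axes share the denominator library.

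By distance in the plane of both fold changes, a likeness over 2 values only, few genes lay near STMN3. The nearest was P2RY11, a purinergic receptor, at a distance of 0.87, with 0.85 and -1.50 in the authors' deposited table. SYP, the synaptic vesicle protein synaptophysin, followed at 0.93, with 1.54 and -1.34 in the authors' deposited table. C12orf57 came next at a distance of 0.98, with 0.34 and -2.44 in the authors' deposited table. The median pair of the 8 genes had closer neighbours. MID1IP1 lay at 0.046 from it, the calcium-binding protein gene CABP1 at 0.053 and VSTM2B at 0.063.

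The 8 genes are spread over 7 chromosomes in GENCODE 29, whose build is GRCh38 and not the hg19 named in the submitters' processing notes. CRMP1 (4:5748084-5893058) and UCHL1 (4:41256413-41268455) share chromosome 4, far apart. STMN3 spans 20:63639705-63657682 on the minus strand and lies 0.128 kb from RTEL1, a DNA helicase gene. RTEL1 stood at 0.44 and 0.31 in the authors' deposited table, so it lay on the other side of 0 from STMN3 in the second comparison. GMEB2, on the other side of STMN3, had 0.23 and -0.02 in the authors' deposited table. TUBB3 lies at 16:89921392-89938761, 0.415 kb from MC1R, the melanocortin receptor gene, and another annotated protein-coding gene overlaps TUBB3 on the same strand. MC1R stood at 0.37 and -0.58 in the authors' deposited table, on the same side of 0 as TUBB3 in each comparison, and reads of the overlapping gene and of TUBB3 cannot be told apart here. CRMP1 overlaps EVC on the opposite strand, a ciliary gene at 0.05 and -0.42 in the authors' deposited table. UCHL1, MAP1B, TUBB3 and NEFL each overlap an annotated antisense gene, and the sources used here do not say whether counting used strand. Processed or other pseudogenes named after STMN1 (2), TUBB3 (2) and NEFL (1) are annotated, which makes the read assignment of those genes less certain.

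Transcript GC content ran with the fold changes across genes. Spearman's rho was 0.39 (first comparison), -0.28 (second) and 0.47 (difference) over 10584 genes matched to a protein-coding transcript. Genes are not independent replicates. STMN3 had a GC content of 63.1%, higher than 92.2% of matched genes, and TUBB3 62.6%, higher than 91.2%. CRMP1 was at 55.9% and UCHL1 at 51.7%. INA was at 50.8%, NEFL at 48.2%, STMN1 at 48.0% and MAP1B at 44.9%, against a median of 48.8% over all matched genes. GC content was high in STMN3 and TUBB3, less so in CRMP1, and near the median in INA and NEFL. The part of GC content in the values of the 8 genes was not tested. Least-squares adjustment across all genes with a 3' UTR of at least 50 bases, for GC content, transcript length and 3' UTR length, left 1.16 and -2.04 for STMN3 and 0.50 and -0.69 for TUBB3. Adjusted values were 0.70 and -1.09 for CRMP1, 1.01 and -0.53 for INA, and 0.63 and -0.33 for NEFL. The adjusted medians over the 8 genes were 0.57 (first comparison) and -0.43 (second).

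**Figure D4:**
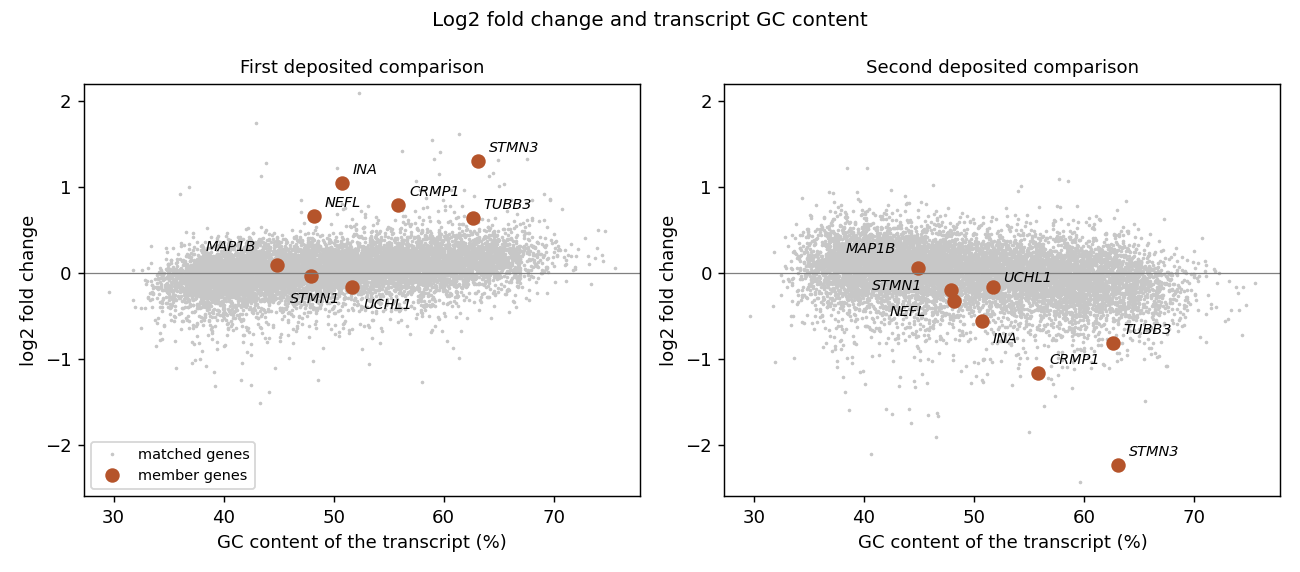
Log2 fold change against the GC content of the transcript for 10584 matched genes (grey) and the 8 member genes (large points), first comparison on the left and second on the right. STMN3 (63.1%) and TUBB3 (62.6%) lie at high GC content, and INA (50.8%) and NEFL (48.2%) lie near the median. The part of GC content was not tested.

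Promoter sequences are shown for STMN3, INA and TUBB3, which were above 0 in the first comparison but below it in the second, and for UCHL1, which lay at -0.17 in both comparisons of the authors' deposited table. Each runs over the 250 bases before the RefSeq start nearest to the transcript used, 5′ to 3′, on GRCh38.p14. Capitals mark the GC box, GGGCGG or its reverse complement CCGCCC, to which SP1-type factors can bind.
STMN3, chr20:63652767-63653016, minus strand: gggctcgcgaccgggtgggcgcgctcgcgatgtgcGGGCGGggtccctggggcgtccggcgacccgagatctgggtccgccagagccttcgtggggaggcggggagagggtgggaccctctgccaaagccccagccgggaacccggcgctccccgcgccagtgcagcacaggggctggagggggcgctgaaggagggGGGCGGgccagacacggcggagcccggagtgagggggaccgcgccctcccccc
INA, chr10:103276888-103277137, plus strand: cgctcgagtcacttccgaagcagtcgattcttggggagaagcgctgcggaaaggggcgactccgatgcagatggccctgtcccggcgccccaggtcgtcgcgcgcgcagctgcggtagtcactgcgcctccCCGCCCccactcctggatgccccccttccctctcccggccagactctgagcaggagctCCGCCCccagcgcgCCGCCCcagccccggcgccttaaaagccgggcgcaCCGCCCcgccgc
TUBB3, chr16:89923092-89923341, plus strand: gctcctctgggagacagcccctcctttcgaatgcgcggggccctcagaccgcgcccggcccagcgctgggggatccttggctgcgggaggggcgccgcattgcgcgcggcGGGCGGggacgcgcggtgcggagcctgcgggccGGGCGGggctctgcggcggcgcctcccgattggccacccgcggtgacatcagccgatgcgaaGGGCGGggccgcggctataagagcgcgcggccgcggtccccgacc
UCHL1, chr4:41256678-41256927, plus strand: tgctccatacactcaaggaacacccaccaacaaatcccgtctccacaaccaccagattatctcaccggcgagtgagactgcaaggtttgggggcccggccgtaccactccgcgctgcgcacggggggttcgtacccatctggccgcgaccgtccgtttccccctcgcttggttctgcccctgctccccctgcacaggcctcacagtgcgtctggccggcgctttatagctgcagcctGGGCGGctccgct

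RefSeq promoter windows, 250 bases before to 50 after a start, were matched for 7 of the 8 genes. All 7 hold a GC box on either strand, and so do 45.0% of 35116 promoters. The number of GC boxes before the start was 2 in STMN3, 4 in INA, 3 in TUBB3, 5 in CRMP1, 4 in STMN1, 3 in MAP1B and 1 in UCHL1. GC content of the window was 79.0% in TUBB3, 77.7% in STMN3, 71.7% in CRMP1 and 71.3% in INA. It was 74.3% in STMN1, 70.0% in MAP1B and 63.0% in UCHL1, against a median of 58.7% over all promoters. TATAAA, on either strand, lay in the windows of UCHL1 and MAP1B only among the 7, and in 11.5% of all promoters. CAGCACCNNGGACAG, the core of the element that REST binds, searched on both strands, was in none of the 14 windows of these 7 genes and in 0.0513% of all promoters. Its left part alone, CAGCACC, was in the window of CRMP1 and in 7.75% of all promoters. Its right part alone, GGACAG, was in the window of INA, in a window of 4 of the 7 genes when all their starts are counted, and in 20.5% of all promoters. These letters may lie outside the windows, and nothing about the factor follows from their absence.

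miRNA sites bear on the design, since both knockdowns reach miRNA maturation. Mature sequences from RefSeq on GRCh38.p14 are shown for miRNAs of families widely expressed in human cell lines and for miR-9 and miR-7, which are enriched in brain and endocrine tissue. Capitals mark the seed, bases 2 to 8.
let-7a-5p: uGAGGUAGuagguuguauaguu
miR-17-5p: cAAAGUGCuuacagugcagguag
miR-16-5p: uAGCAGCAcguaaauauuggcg
miR-19b-3p: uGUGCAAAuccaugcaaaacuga
miR-92a-3p: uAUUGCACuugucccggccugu
miR-9-5p: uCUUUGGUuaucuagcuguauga
miR-7-5p: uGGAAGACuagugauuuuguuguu

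None of the 8 genes carried the site of let-7a-5p (CTACCTC), miR-17-5p (GCACTTT) or miR-16-5p (TGCTGCT) in the 3' UTR of the transcript used. Of 10366 genes with a 3' UTR of at least 50 bases, 10.3%, 23.3% and 23.7% carried them. The site of miR-19b-3p (TTTGCAC) was in CRMP1 and MAP1B, and in 15.0% of genes. The site of miR-92a-3p (GTGCAAT) was in MAP1B and NEFL, and in 11.9% of genes, and that of miR-9-5p (ACCAAAG) was also in MAP1B and NEFL, and in 13.5% of genes. The site of miR-7-5p (GTCTTCC) was in STMN3, and in 12.8% of genes. By gene, MAP1B held sites of 3 of these miRNAs, NEFL of 2, and CRMP1 and STMN3 of 1 each, while INA, TUBB3, STMN1 and UCHL1 held none. These 3' UTRs differed in length, and the site counts were not adjusted for it. MAP1B had 4331 bases, NEFL 1855, INA 1682 and STMN3 1630, against a median of 1189 over the 10366 genes. CRMP1 had 977, STMN1 898, UCHL1 356 and TUBB3 293. The sites in CRMP1, STMN3 and MAP1B read as follows in the sense of the transcript, with the match in capitals.
CRMP1, miR-19b-3p, chr4:5821403-5821432, minus strand: gtggtggttccTTTGCACcctgtagatgtt
STMN3, miR-7-5p, chr20:63640020-63640049, minus strand: gcactgccagtGTCTTCCagagtcacaccc
MAP1B, miR-19b-3p, chr5:72207361-72207390, plus strand: taagtctatgtTTTGCACtgctaactatga

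The 7-mers whose carriers had the lowest adjusted fold changes, by a mean weighted up for many carriers, were also looked up in these 3' UTRs. They were AATCTAA and CAATCTA in the first comparison, carried by 11.7% and 5.37% of genes, and GTGACTT and TGACTTA in the second, carried by 14.2% and 11.7%. They were picked from the values, and overlap in pairs. None of the 8 genes carried AATCTAA or CAATCTA. The 7-mer GTGACTT was in STMN1 and MAP1B, which stood at -0.20 and 0.06 in the second comparison of the authors' deposited table. TGACTTA was in NEFL, which stood at -0.33 in the second comparison of the authors' deposited table. STMN3, CRMP1, TUBB3 and INA carried none of the 4. REST, which stood at -0.50 in the first comparison of the authors' deposited table, carried both AATCTAA and CAATCTA. REST and the 8 genes were among the genes from which the 7-mers were picked. The part of the 7-mers in any of these values was not tested. The site in STMN1 and one of the sites in MAP1B are shown as examples of the letters around GTGACTT.
STMN1, chr1:25900542-25900571, minus strand: tgttggtggcaGTGACTTcttttgagttag
MAP1B, chr5:72206176-72206205, plus strand: tgccttaggaaGTGACTTgaatgtacaaag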

How the data were processed

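The deposited table holds 12040 gene symbols, 3 columns of levels and the authors' log2 fold changes in 2 columns, with no header. The 3 level columns could be matched to no sample and give no value here. They served to test what the authors' log2 fold changes hold, which equal a log2 ratio after 1 was added to each level, within 1e-11 in all genes. The denominator level was above 1 in all 12040 genes, so genes low in that library were not analysed here. The submitters' processing notes list, with no role or order, hg19, TopHat2 2.06, SAMtools, CASAVA 1.8.2, Cuffdiff 2.1.1 and Cufflinks. Depth is unknown.

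Computed here with Python 3.11.15, pandas 2.3.3 and numpy 2.4.6 were the first minus the second fold change, ranks, medians, counts past 2-fold and 1.5-fold, and the adjustment. That regressed each value on GC content, transcript length and 3' UTR length (lengths on the log2 scale), with the square of each, over 10366 genes. For each gene 1 GENCODE 29 transcript (principal isoform, then longest coding part) was used. Each 7-mer with at least 50 carrier genes was ranked by the mean adjusted value of its carriers times the square root of their number. Adjustment and ranking were run on simulated data with independent noise, where the planted 7-mer ranked lowest. The planted shift was larger than the carrier means found here, so those runs do not show how the ranking performs on these data.

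The members and lists were chosen with earlier results of these data known. Named were the members, DICER1, DROSHA and REST, up to 3 genes at the ends of each other list, all genes of the stathmin, collapsin response mediator and hydrolase lists, and the 3 genes nearest to STMN3 and to the members' median. Neighbouring and overlapping genes, and PRPH, RCOR1, TUBB2A, MAPT, CPLX1, TMEM145 and NUPR1, were added after their values were seen.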

Additional observations from a re-analysis of the deposited data

Results flagged for a closer look

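STMN3 was past a 2-fold difference in both comparisons, on opposite sides of 0, and its first minus second fold change was 3.54. A difference of at least 1 was found for 1.31% of all genes. STMN3 was not alone in passing 2-fold on opposite sides of 0. In the authors' deposited table SYP had 1.54 and -1.34, CPLX1 had 1.33 and -1.09, TMEM145 had 1.33 and -1.12, and NUPR1 had 1.21 and -1.05. The comparisons share their denominator library, so the values are given side by side only. With 1 library a group, the difference for STMN3 was not tested.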

How the results depend on the processing

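No paired analysis was possible because each group has 1 library, and for the same reason no library could be left out. Re-centring on the median of all genes kept the counts past 2-fold and moved each median of the 8 genes by less than 0.1. At a 1.5-fold threshold 5 genes passed in the first comparison instead of 2. The mean in place of the median gave 0.54 (first comparison) and -0.68 (second). Without STMN3 the median was -0.33 in the second comparison and 0.99 in the difference. Adjustment for length and GC content gave a median of 1.08 in the difference. The same adjustment of the 24 single values (chosen after the data were seen, as for the counts) kept the sign of 22, and the exceptions, MAP1B in the second comparison (-0.02) and UCHL1 in the difference (-0.06), had been near 0. Fold changes of genes with low levels are shrunk by the 1 added to each level, and the levels of these genes were not used here.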
